A study of Mus musculus with 20 samples.

Results

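The 9 genes described here define B cells: Cd79a, Cd79b, Blk, Cd22, Ms4a1, Cr2, Fcer2a, Pax5 and Ebf1. They were chosen by symbol, as rows of both deposited tables, with earlier results of these data known. All 9 were found in each, out of 26099 genes listed in the acute table and 26486 in the survival table, and all 9 passed the filter on low values in both. The samples are 20 spleens of mice that were sublethally irradiated and injected intravenously with a mouse T-cell acute lymphoblastic leukemia (T-ALL) whose Acly gene can be deleted with tamoxifen. Acly encodes ATP-citrate lyase, which makes cytosolic acetyl-CoA from citrate. In the acute arm, mice that were already overtly leukemic were given corn oil (6 control libraries) or 3 mg of tamoxifen (4 knockout libraries) and their spleens were collected after 72 h. In the survival arm, treatment with corn oil (5 control libraries) or 3 mg of tamoxifen (5 knockout libraries) came 48 h after transplantation and collection waited for the humane endpoint. Control mice bore leukemias with the same conditional allele and got no tamoxifen, and the drug and the deletion cannot be told apart. The labels used here name neither the Cre driver, the host strain, the age of the mice nor the number of separate leukemias. Nor do they say in so many words that libraries come from different mice, and p-values measure the spread between libraries.

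B cells recognise antigen through membrane immunoglobulin, which signals through the paired chains CD79A and CD79B. Blk, a kinase of the Src family, acts at the start of that signal, while CD22 restrains it and the complement receptor CR2 strengthens it. Ebf1 and Pax5 are the transcription factors that commit progenitors to the B lineage and keep the programme on. The spleen is normally rich in follicular and marginal zone B cells, and B cells are among the lymphocytes most sensitive to irradiation. T-ALL is a leukemia of immature T cells, so in these spleens B cell transcripts are a small part of the RNA. Each spleen was passed through a 40 µm filter and its red cells were lysed, with no sort named, so a library holds the RNA of leukemic and host cells together. In such bulk RNA, fewer cells of a type and less RNA per cell cannot be told apart.

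Values are the authors' normalized counts, which sum to between 19432235 and 21623571 per library. The arms were normalized in separate tables, so every fold change was taken within its own table. Acly, the check of the labels, was at 7406 to 8280 (median 7633) in the acute controls and at 5226, 6228, 6402 and 4823 in acute knockouts 1 to 4. In the survival arm it was at 7922, 7758, 7396, 7544 and 8825 in the controls and at 4017, 2174, 3523, 3025 and 2718 in the knockouts. Each knockout library was therefore below every control of its arm, by more at the endpoint (log2 fold change -1.38, SE 0.131, adjusted p = 0.0016) than at 72 h (-0.46, SE 0.0747, adjusted p = 0.00087). The acute part of this check depends on the scaling. With libraries scaled to their T-cell receptor beta transcripts, the acute change was -0.089 (limma, adjusted p = 0.638). The endpoint change ran from -1.49 to -1.26 over all alternative settings. In the acute controls 19 listed T-lineage genes summed to 250065 to 260086, where the 9 B cell genes summed to 465 to 915.

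RefSeq promoter windows on GRCm38.p6 hold 6 of the 9 genes: Cd79a, Cd22, Cr2, Fcer2a, Pax5 and Ebf1. In windows from 250 bases before to 50 after each start, 4 short motifs bound by B cell factors were looked up on both strands. They were the octamer ATGCAAAT, the EBF1 letters, TCCC and GGGA parted by any 2 bases, the E-box CAGGTG, whose letters are also those of E2A sites, and GAGGAA, the core read by PU.1 and SpiB. CAGGTG occurred in 4 of the 6 genes (Cd79a, Cd22, Cr2, Fcer2a), against 22.6% of all 27025 genes with a window. GAGGAA occurred in 2 of 6 (Cd79a, Ebf1), against 31.3% of all genes. The EBF1 letters occurred in 1 of 6, Cd22, against 1.06%, and the octamer in 0 of 6, against 1.97%. A match is a description of the letters and not a mapped binding site. Whether these motifs bear on the levels of the genes in either arm was not tested. The 250 bases before the start are printed for the signalling chain Cd79a (chr7:24897247-24897496, plus strand), the inhibitory receptor Cd22 (chr7:30879029-30879278, minus strand) and the complement receptor Cr2 (chr1:195176720-195176969, minus strand), each in the direction of the gene. Capitals mark the motif matches on either strand, so that CACCTG is CAGGTG read on the other strand and TTCCTC is GAGGAA.
Cd79a: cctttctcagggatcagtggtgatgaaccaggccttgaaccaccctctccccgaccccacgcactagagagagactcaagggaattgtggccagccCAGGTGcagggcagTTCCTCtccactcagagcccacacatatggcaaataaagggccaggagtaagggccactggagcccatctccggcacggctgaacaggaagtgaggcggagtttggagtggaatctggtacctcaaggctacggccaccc
Cd22: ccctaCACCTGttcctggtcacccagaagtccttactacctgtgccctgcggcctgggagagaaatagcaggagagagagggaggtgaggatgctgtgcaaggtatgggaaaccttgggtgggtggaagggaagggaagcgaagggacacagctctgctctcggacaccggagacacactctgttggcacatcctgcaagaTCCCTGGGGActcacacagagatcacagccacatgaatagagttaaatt
Cr2: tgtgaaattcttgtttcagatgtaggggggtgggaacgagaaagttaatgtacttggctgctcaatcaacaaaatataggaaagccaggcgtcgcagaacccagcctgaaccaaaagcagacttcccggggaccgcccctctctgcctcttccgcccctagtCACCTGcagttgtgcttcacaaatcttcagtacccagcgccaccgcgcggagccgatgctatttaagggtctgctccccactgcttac
Cd79a holds an E-box beside a PU.1/SpiB core, Cd22 holds an E-box far from its start and the EBF1 letters close to it, and Cr2 holds a single E-box.

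All 9 B cell genes rose in the acute arm at 72 h after tamoxifen. Their log2 fold changes ran from 0.96 (Ebf1) to 2.26 (Cr2), with a median of 1.42, or 2.68-fold, where the median over all 16363 genes tested was -0.023. Of all genes tested, 16.7% were called higher and 14.7% lower at an adjusted p under 0.05 (limma, Benjamini-Hochberg over all genes). Groups did not overlap for 4 of the 9 (Ms4a1, Cd79a, Cd22, Blk), where 12.7% of all genes had every knockout above every control. At the endpoint 0 of the 9 were called by limma, 4 had an unadjusted p under 0.05 (Cd79a, Cd79b, Fcer2a, Ebf1), and the median log2 fold change was -0.62, or 0.649-fold. In that arm 0.0062% of 16136 genes tested were called higher and 0.0062% lower, 1 gene each way, and 8.74% had an unadjusted p under 0.05. The log2 fold change was below 0 for 7 of the 9 and above 0 for Cd22 and Cr2, where 47.4% of all genes were below 0.

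**Figure D1:**
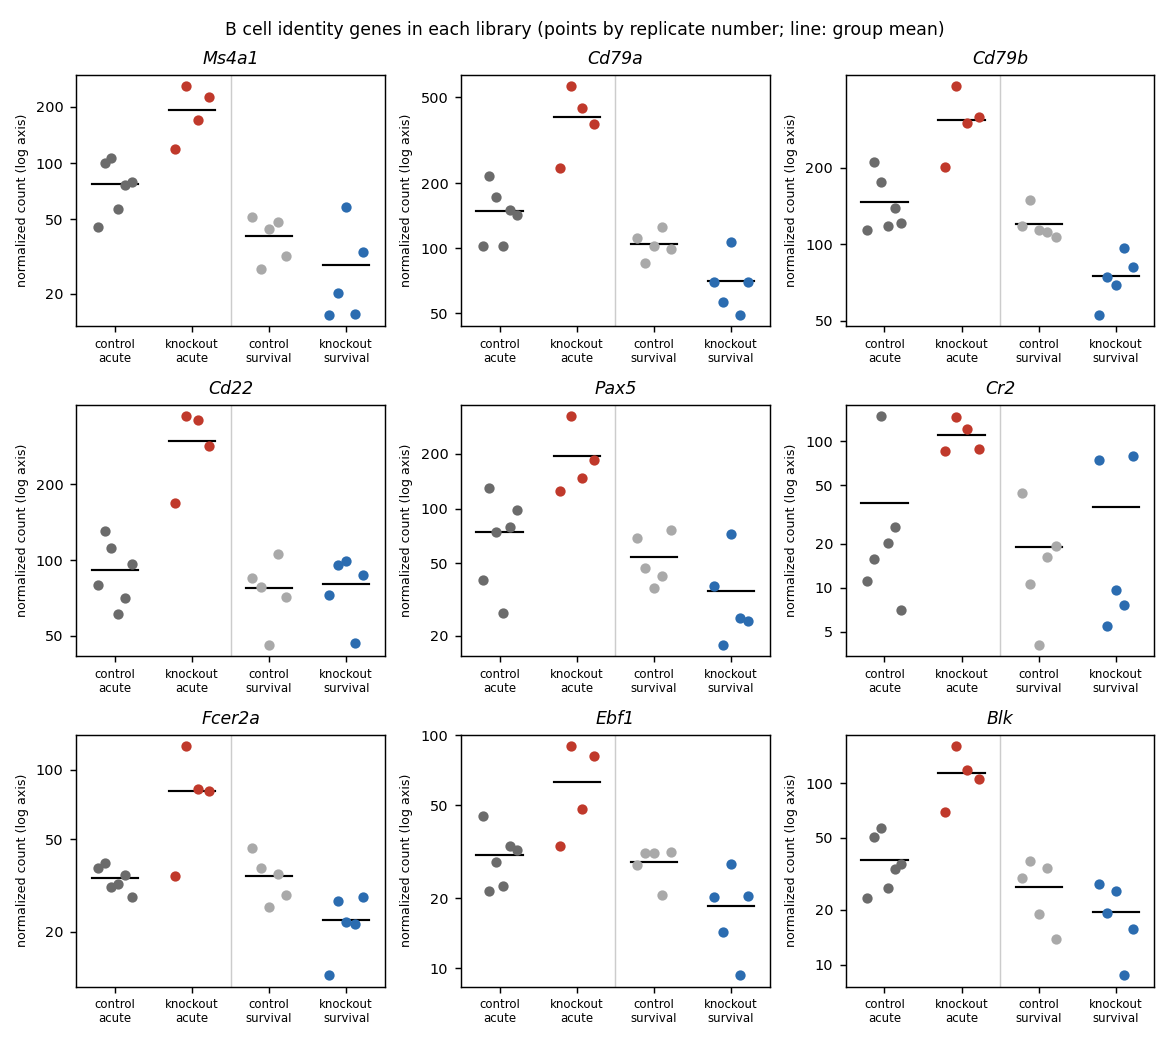
Normalized count of each of the 9 B cell genes (vertical log axis) in every library of the 4 groups, with points placed in order of replicate number and a line at the group mean. All 4 acute knockouts lie above the acute control mean in every panel, while in the survival arm the knockout mean lies below the control mean for all but Cd22 and Cr2.

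Cd79a encodes the first signalling chain of the B-cell receptor. In the acute arm it was at 102.1 to 216.7 normalized counts in the 6 controls (median 146.5) and at 234.3, 562.5, 444.2 and 373.6 in knockouts 1 to 4. Every knockout was above every control, although knockout 1 was only just above control 2. The mean rose from 148 ± 43.7 (SD, n = 6) to 404 ± 137 (SD, n = 4), a log2 fold change of 1.42 (SE 0.256, adjusted p = 0.00154). At the endpoint the controls were at 111.0, 86.0, 102.0, 126.0 and 99.0 and the knockouts at 70.2, 56.4, 106.8, 49.3 and 70.2. Knockouts 1, 2, 4 and 5 were below every control and knockout 3 was among them. The means were 105 ± 14.9 and 70.6 ± 22.2 (SD, n = 5 each), with a log2 fold change of -0.60 (SE 0.199) that did not pass (adjusted p = 0.353).

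Cd79b, the partner chain, was at 113.6 to 210.2 in the acute controls (median 129.8) and at 200.7, 418.9, 300.6 and 316.2 in the knockouts. Knockout 1 fell just short of control 2, so the groups overlapped by that pair. The mean rose from 146 ± 38.8 (SD, n = 6) to 309 ± 89.3 (SD, n = 4), a log2 fold change of 1.07 (SE 0.218, adjusted p = 0.00329). At the endpoint it was at 118.3, 149.4, 113.5, 111.4 and 106.3 in the controls and at 52.8, 74.5, 68.9, 96.7 and 81.6 in the knockouts. Here every knockout was below every control, the one gene of the 9 whose endpoint groups did not overlap; 0.793% of all genes tested had every knockout lower. The means were 120 ± 17.1 and 74.9 ± 16.2 (SD, n = 5 each), and the log2 fold change of -0.69 (SE 0.170) did not pass over all genes (adjusted p = 0.241).

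Blk, the receptor-proximal kinase, was at 23.2 to 56.9 in the acute controls (median 34.7) and at 69.2, 159.8, 118.5 and 106.1 in the knockouts, which did not overlap with them. It rose from 37.8 ± 13.3 (SD, n = 6) to 113 ± 37.3 (SD, n = 4), a log2 fold change of 1.57 (SE 0.290, adjusted p = 0.00181). Endpoint values were 30.2, 37.1, 19.0, 34.3 and 13.8 in the controls and 27.9, 19.1, 25.5, 8.74 and 15.7 in the knockouts. Most endpoint knockouts lay within the control range, and only knockout 4 was below it. The means of 26.9 ± 10.1 and 19.4 ± 7.71 (SD, n = 5 each) gave a log2 fold change of -0.46 (SE 0.352, adjusted p = 0.739).

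Cd22 encodes the sialic acid-binding receptor that damps B-cell receptor signals. Acute controls were at 60.9 to 130.9 (median 87.8) and knockouts 1 to 4 at 168.4, 373.3, 361.3 and 284.2, all above the controls. Its rise, from 91.5 ± 26.4 (SD, n = 6) to 297 ± 94.3 (SD, n = 4), had the smallest adjusted p of the 9 (log2 fold change 1.67, SE 0.256, adjusted p = 0.00059). Endpoint controls were at 85.0, 78.0, 46.0, 105.9 and 71.3 and endpoint knockouts at 72.6, 95.8, 98.8, 47.0 and 87.2. Both groups covered nearly the same range. The log2 fold change was 0.057 (SE 0.246, adjusted p = 0.966), between means of 77.2 ± 21.8 and 80.3 ± 21.2 (SD, n = 5 each).

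Ms4a1 encodes CD20, the surface protein targeted by therapeutic antibodies against B cells. It was at 45.4 to 106.0 in the acute controls (median 77.9) and at 118.9, 259.2, 170.4 and 226.4 in the knockouts. The groups did not overlap, and the mean rose from 77.4 ± 23.6 (SD, n = 6) to 194 ± 61.9 (SD, n = 4), a log2 fold change of 1.31 (SE 0.269, adjusted p = 0.0034). In the survival arm the controls were at 51.4, 27.2, 44.4, 48.5 and 31.6 and the knockouts at 15.4, 20.04, 58.3, 15.6 and 33.4. Knockouts 1, 2 and 4 were below every control, while knockout 3 was above every control. The log2 fold change of -0.64 (SE 0.351, adjusted p = 0.643), between means of 40.6 ± 10.7 and 28.5 ± 18.2 (SD, n = 5 each), did not pass.

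Cr2 encodes complement receptors CR1 and CR2, the latter known as CD21, and is high on marginal zone B cells and on follicular dendritic cells. In the 6 acute controls it was at 11.1, 15.8, 148.1, 20.1, 26.2 and 7.05, and in knockouts 1 to 4 at 86.3, 146.4, 121.9 and 89.1. Control 3 was above every knockout, and the other controls were all below every knockout. It rose from a mean of 38.1 ± 54.3 (SD, n = 6; median 18.0) to 111 ± 28.6 (SD, n = 4), with the highest log2 fold change of the 9 and the widest error (2.26, SE 0.637, adjusted p = 0.0182). The endpoint controls were at 44.4, 10.6, 4.07, 16.2 and 19.2 and the endpoint knockouts at 74.4, 5.51, 9.66, 7.65 and 79.7. Knockouts 1 and 5 were above every control and the other knockouts were near the low end of the controls. With means of 18.9 ± 15.4 and 35.4 ± 38.1 (SD, n = 5 each), the log2 fold change of 0.39 (SE 0.769, adjusted p = 0.907) was within its error.

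Fcer2a encodes CD23, the low-affinity IgE receptor of follicular B cells. It was at 28.3 to 39.7 in the acute controls (median 33.7) and at 34.9, 126.1, 82.9 and 80.8 in the knockouts. Knockout 1 lay within the narrow control range and knockouts 2, 3 and 4 were well above it. The mean rose from 34.03 ± 4.28 (SD, n = 6) to 81.1 ± 37.2 (SD, n = 4), a log2 fold change of 1.10 (SE 0.292, adjusted p = 0.0136). Endpoint controls were at 46.0, 37.6, 25.6, 35.3 and 28.9 and endpoint knockouts at 12.98, 27.2, 22.1, 21.5 and 28.3. Knockouts 2 and 5 lay within the control range and the others below it. The means of 34.7 ± 7.96 and 22.4 ± 6.07 (SD, n = 5 each) gave a log2 fold change of -0.62 (SE 0.253, adjusted p = 0.488).

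Pax5, the factor that maintains B cell commitment, was at 26.5 to 129.2 in the acute controls (median 76.6) and at 125.3, 322.4, 147.2 and 184.8 in the knockouts. Knockout 1 was just below control 2, and the other knockouts were above every control. The mean rose from 74.7 ± 37.5 (SD, n = 6) to 195 ± 88.5 (SD, n = 4), a log2 fold change of 1.45 (SE 0.408, adjusted p = 0.018). At the endpoint it was at 69.1, 47.3, 36.7, 42.4 and 76.0 in the controls and at 37.3, 17.8, 72.4, 24.8 and 24.0 in the knockouts. Knockouts 2, 4 and 5 were below every control, knockout 1 was level with the lowest and knockout 3 was near the highest. The log2 fold change was -0.73 (SE 0.343, adjusted p = 0.585), between means of 54.3 ± 17.2 and 35.3 ± 21.95 (SD, n = 5 each).

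Ebf1, which acts ahead of Pax5 in B-lineage specification and is also expressed by some stromal cells, was at 21.6 to 45.0 in the acute controls (median 30.4) and at 33.6, 89.6, 48.2 and 81.2 in the knockouts. Knockout 1 lay within the control range. The rise, from 30.6 ± 8.60 (SD, n = 6) to 63.1 ± 26.6 (SD, n = 4), was the smallest of the 9 (log2 fold change 0.96, SE 0.302, adjusted p = 0.030). Endpoint controls were at 27.7, 31.3, 31.2, 20.7 and 31.6 and endpoint knockouts at 20.3, 14.4, 28.0, 9.37 and 20.4. All but knockout 3 were below every control. The means of 28.5 ± 4.63 and 18.5 ± 7.03 (SD, n = 5 each) gave a log2 fold change of -0.66 (SE 0.282, adjusted p = 0.518).

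The 4 acute knockout libraries did not contribute alike. Knockout 2 had the highest level of its group for all 9 genes and knockout 1 the lowest for all 9. The median gene was at 1.58, 3.80, 2.43 and 2.52 times the control mean in knockouts 1 to 4, and all 9 genes were above the control mean in each of them. Without knockout 2, 6 of the 9 were called: adjusted p was 0.0634 for Pax5, 0.0531 for Cr2 and 0.106 for Ebf1. In that fit 12.9% of all genes tested were called higher. Without knockouts 2 and 3 together, which earlier results of these data had shown to be highest in markers of other cell types, 3 of the 9 were called (Cd79a, Cd22, Blk), with a median log2 fold change of 1.13 over the 9, and 8.04% of all genes tested were called higher. Ebf1 was the least secure of the calls and lost it in 8 alternatives, among them leaving out any one of control 2, 3 or 4 or knockout 2 or 4 (adjusted p from 0.0531 to 0.106).

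**Figure D2:**
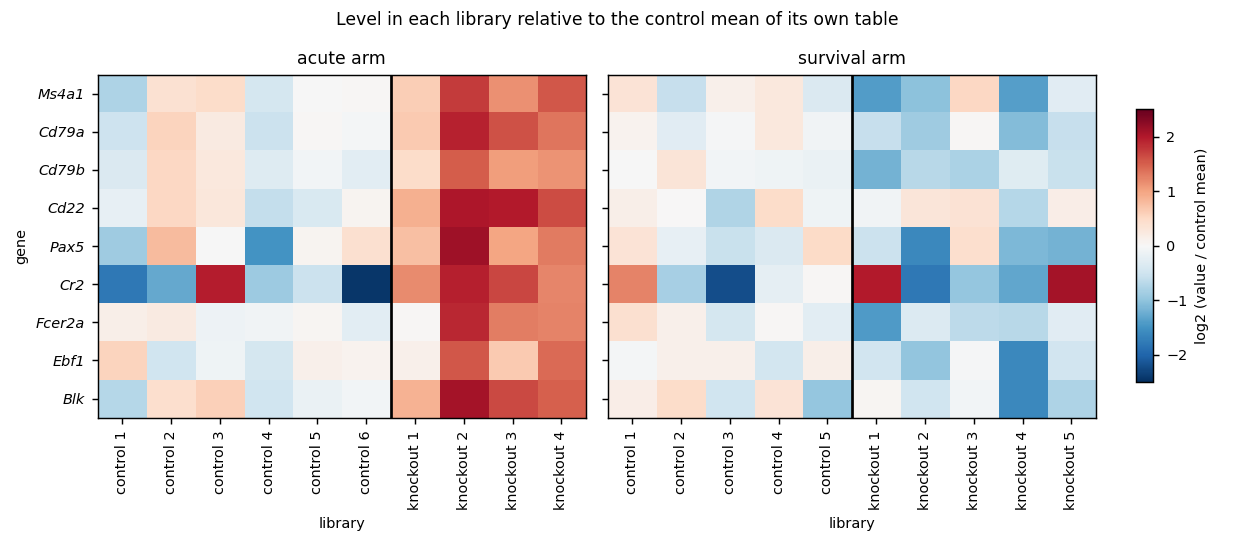
Level of each gene (rows) in each library (columns) as log2 of its normalized count over the control mean of the same table, red for higher and blue for lower. The acute knockouts are red in nearly every cell and deepest in knockout 2, whereas Cr2 is also deep red in acute control 3 and in endpoint knockouts 1 and 5.

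In the endpoint knockouts the order of libraries was less regular. Knockout 4 was lowest for 4 of the 9 genes and had 0 of the 9 above the control mean, with a median of 0.457 times that mean. Knockout 3 was highest for 5 genes, with a median of 0.982 times the control mean. Medians in knockouts 1, 2 and 5 were 0.687, 0.538 and 0.716. Summed over the 9 genes, the level was 422 to 583 in the endpoint controls and 281 to 490 in the endpoint knockouts, so the groups overlapped.

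The fold change at the endpoint differed from that at 72 h for 8 of the 9 genes, tested as the survival log2 fold change less the acute one over all 20 libraries. The difference ran from -2.18 to -1.61 with a median of -1.87 over the 9. Of 15673 genes tested in both arms, 10.9% were called lower and 9.39% higher in this contrast, and the median over all of them was 0.032. Among the signalling genes it was -2.03 for Cd79a (SE 0.338, adjusted p = 0.00026), -1.75 for Cd79b (SE 0.285, adjusted p = 0.00021) and -2.03 for Blk (SE 0.474, adjusted p = 0.0046). Among the surface proteins it was -1.61 for Cd22 (SE 0.375, adjusted p = 0.0045), -1.95 for Ms4a1 (SE 0.467, adjusted p = 0.0055) and -1.73 for Fcer2a (SE 0.389, adjusted p = 0.0035). The transcription factors had differences of -2.18 for Pax5 (SE 0.568, adjusted p = 0.0098) and -1.63 for Ebf1 (SE 0.417, adjusted p = 0.0090). Cr2, with -1.87, had the largest error and did not pass (SE 1.09, adjusted p = 0.241). Without acute knockouts 2 and 3, 2 of the 9 passed (Cd79a, Cd79b), and adjusted p for the 6 that no longer passed was 0.0518 to 0.0743. In that fit 5.49% of all genes tested were called lower.

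**Figure D3:**
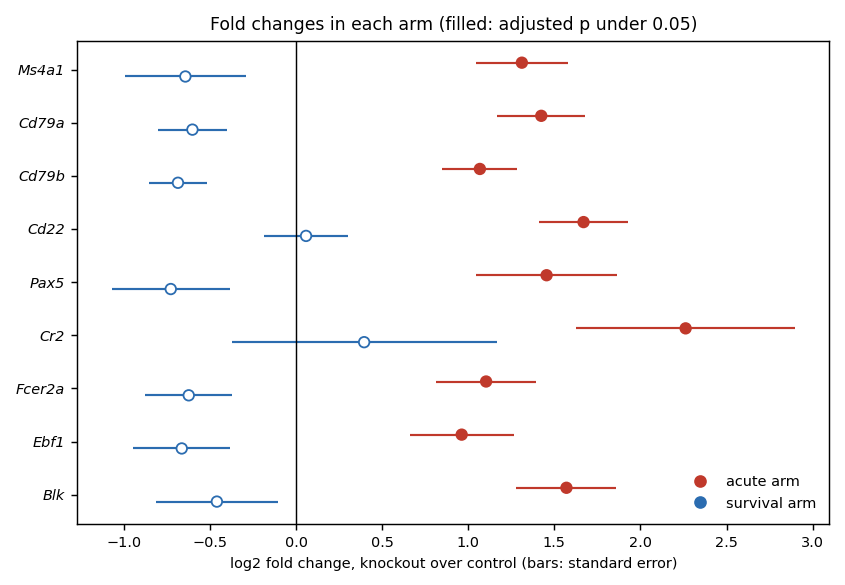
Log2 fold change of knockout over control (horizontal axis) with its standard error for each gene, in the acute arm (red) and the survival arm (blue), filled where the adjusted p was under 0.05. All 9 red points are filled and right of 0, all 9 blue points are open, and 7 of the blue points are left of 0.

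Set side by side across tables that were normalized separately, and so without a test, the mean was highest in the acute knockouts for all 9 genes. For Ms4a1, Cd79a, Cd79b, Pax5, Ebf1 and Blk the order that followed was acute controls, endpoint controls, endpoint knockouts. Cd22 and Cr2 had the endpoint knockouts above the endpoint controls, by less than the SD of the knockouts, and Fcer2a had the endpoint controls above the acute controls by a similarly small margin. The ratio of the endpoint control mean to the acute control mean ran from 0.497 for Cr2 to 1.02 for Fcer2a.

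The balance between the 9 genes was read within each library. Taken relative to Cd79a, the log2 level of the other 8 differed between acute knockouts and controls by -0.46 (Ebf1) to 0.84 (Cr2), and the groups overlapped for all 8. At the endpoint, Cd22 relative to Cd79a was higher in the knockouts by 0.66, with no overlap between groups, and the other 7 overlapped. The log2 fold changes of the genes themselves were 0.057 for Cd22 and -0.60 for Cd79a, neither called by limma. This ratio is 1 of 8 read in each arm and was not tested. How often ratios of other genes part the groups was not examined.

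Libraries with much of 1 gene tended to have much of the others. Over the 20 libraries, after taking out group means, Pearson's r of a gene with the mean of the other 8 was 0.838 for Cd79a, 0.737 for Cd22, 0.698 for Blk, 0.666 for Ms4a1 and 0.576 for Pax5. It was lower for Fcer2a (0.443), Cd79b (0.421), Ebf1 (0.375) and Cr2 (0.265). For Cd79b it was 0.929 in the acute arm and -0.413 in the survival arm. These correlations are descriptions over libraries that share their processing, and they come from the same values as the fold changes.

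Cr2 departed from the other 8 in particular libraries. In acute control 3 its log2 level was 2.71 above the acute control mean, where the other 8 averaged 0.26 above. In endpoint knockouts 1 and 5 it was 2.27 and 2.37 above the endpoint control mean while the other 8 averaged 0.65 and 0.44 below. In the 4 acute knockouts both were above: 1.94, 2.69, 2.43 and 1.98 for Cr2 against 0.61, 1.90, 1.34 and 1.43 for the others. Because Cr2 is also a gene of follicular dendritic cells, the other markers of that list were read in the same libraries. Fdcsp was at 0 or absent in both tables and Madcam1 in the acute table, Cxcl13 reached at most 10.01 and Coch at most 23.0 in any library. Clusterin (Clu), which many cell types express, was the remaining marker, and the summed list was 64.4 in acute control 3 against 56.2 to 363 over the acute controls. The sum of 363 was in acute control 1, where Cr2 was at 11.1. At the endpoint the sum was 83.1, 79.0, 70.2, 66.6 and 94.1 in knockouts 1 to 5, highest in knockouts 5 and 1. In endpoint controls 1 to 5 it was 96.3, 106, 109, 138 and 75.1, with Cr2 at 44.4, 10.6, 4.07, 16.2 and 19.2. Whether follicular dendritic cells account for the Cr2 levels was not tested.

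**Figure D4:**
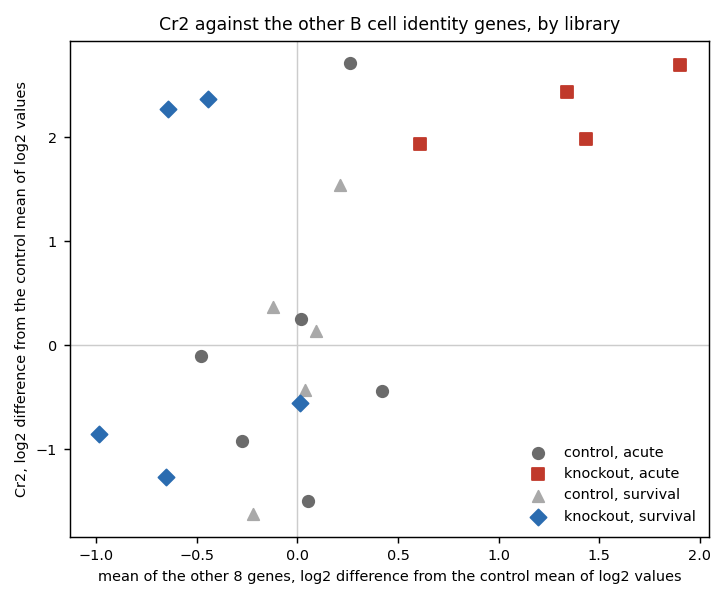
Log2 level of Cr2 (vertical axis) against the mean log2 level of the other 8 genes (horizontal axis), each as the difference from the control mean of log2 values in the same arm, with 1 point per library. The 4 acute knockouts are high on both axes, while acute control 3 and endpoint knockouts 1 and 5 are high for Cr2 alone.

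Other genes of the B-cell receptor pathway moved the same way in the acute arm. Of 16 listed kinases, adaptors and coreceptors, all tested, 12 rose and 0 fell, with a median log2 fold change of 1.32. Over all genes tested in that arm 16.7% were called higher and 14.7% lower, also the background for the lists that follow. The genes that the naming rule picks are ones that myeloid cells also express: Syk (769 to 2283, 1.51), the kinase recruited to CD79A and CD79B; Plcg2 (177 to 1739, 3.26), the phospholipase below it; Fcgr2b (35.7 to 380, 3.51), the inhibitory IgG receptor; and Inpp5d (731 to 1675, 1.14), the phosphatase SHIP1. At the endpoint 0 of the 16 were called by limma, 2 had an unadjusted p under 0.05, and the median was 0.014. There the most abundant, the phosphatase gene Ptpn6, was at 8338 in controls and 8767 in knockouts.

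B-lineage transcription factors split. Of 13 tested in the acute arm, 7 rose and 1 fell, with a median of 1.10. Mef2c (52.2 to 207, log2 fold change 1.99) and Spi1 (217 to 1970, 3.08), which encodes PU.1 and is also the master factor of myeloid cells, rose most. Tcf4 fell by 0.28 (1104 to 907), a direction that turned to 0.089 with scaling on T-cell receptor beta transcripts. Its call was also lost without acute knockout 2 (adjusted p = 0.0608), without acute knockout 3 (0.0999), without both (0.258) and without a mean-variance trend (0.0544). At the endpoint 0 of 13 were called, with a median of -0.036, and Ikzf3 was at 8016 in controls and 7811 in knockouts.

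Among mature B-cell surface genes, 10 of 17 tested rose and 2 fell in the acute arm, with a median of 0.95. Cd180 (38.9 to 165, log2 fold change 2.03), a Toll-like receptor homologue, and Fcmr (41.9 to 145, 1.72), the IgM Fc receptor, rose most, and the tetraspanin gene Cd37 rose by 0.58 (1527 to 2330), a call lost without acute knockouts 2 and 3 (0.29, adjusted p = 0.0616). Ly6d, which early lymphoid cells also express, fell by 0.52 (5277 to 3693), and did not pass with that scaling (-0.15). At the endpoint 0 of 16 were called and Ly6d was at 4746 and 4214. Of 6 marginal zone genes, 4 rose, including Cd9 (155 to 666, 1.99), Myof (38.7 to 92.1, 1.22) and the sphingosine receptor gene S1pr3 (6.42 to 52.8, 3.15), while Cd1d1, the most abundant at the endpoint (391 and 453), was not called in either arm. S1pr3 reached at most 10.6 in the acute controls and passed the filter only through the knockouts, where it is high. It was not tested at the endpoint.

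Genes of other B cell stages did not all share this. Of 7 germinal centre genes only 3 passed the filter, and of these Bcl6, which T cells also use, rose by 0.53 (630 to 916) and was not called without acute knockouts 2 and 3 (adjusted p = 0.163). Of 6 B precursor genes, Vpreb1 and Vpreb2 were at 0 or absent and Igll1 was below the filter. Dntt and Il7r, which immature T cells share, fell by 0.43 (22183 to 16507) and 0.67 (1730 to 1089). With scaling on T-cell receptor beta transcripts Dntt was at -0.064 and no longer called (adjusted p = 0.391). Of 7 plasma cell genes tested, 6 rose, among them Jchain (874 to 3561, 1.997), the joining chain of secreted IgM and IgA, Derl3 (15.4 to 45.7, 1.66) and Txndc5 (1340 to 1882, 0.47). Without acute knockouts 2 and 3, 1 of the 7 plasma cell genes was called, with adjusted p of 0.158 for Derl3 and 0.0809 for Txndc5. At the endpoint 0 genes of these 3 lists were called, and Bcl6 (586 and 642), Dntt (19590 and 20394) and Sdc1 (1809 and 1765) are the most abundant genes of each, given as control and knockout means.

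**Figure D5:**
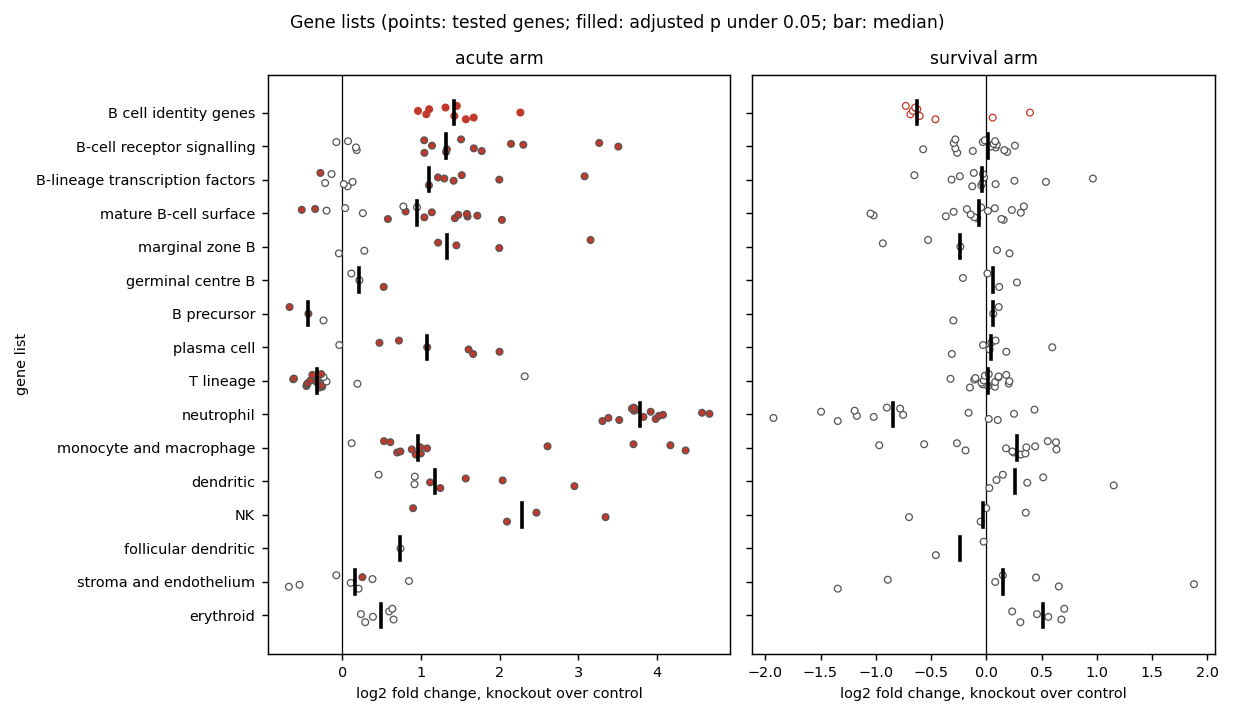
Log2 fold change of every tested gene (points) in each gene list, knockout over control, in the acute arm (left) and survival arm (right), filled where the adjusted p was under 0.05, with a bar at the list median. In the acute arm the B cell identity genes lie between 0.96 and 2.26, neutrophil genes lie further right (median 3.78) and 17 of 19 T-lineage genes lie left of 0 (median -0.32), and in the survival arm no point is filled.

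Markers of other host cells rose alongside the 9 genes in the acute knockouts, and T-lineage genes fell. All 14 neutrophil genes rose, with a median of 3.78: Ngp went from 7157 to 95895, Ltf from 4193 to 70771, Mmp8 from 103 to 2908 and Mmp9 from 285 to 7840. Their summed level was 12131 to 49764 in the acute controls and 180849, 612169, 372127 and 217838 in knockouts 1 to 4, highest in knockout 2 and lowest in knockout 1, as for the B cell genes. Of the 14 monocyte and macrophage genes 13 rose (median 0.96; Lyz2 from 2163 to 28333, Ly6c2 from 240 to 4213, Ccr2 from 49.3 to 974). Of 8 dendritic cell genes tested 5 rose (median 1.18; Itgax, Flt3, Clec10a), as did 4 of 4 natural killer cell genes (median 2.28; Gzmb, Prf1, Klrb1c). Without acute knockouts 2 and 3 the call for Prf1 was lost (0.50, adjusted p = 0.136). Called were 0 of 6 erythroid genes (Hba-a1 at 4208 and 6130), 0 of 1 follicular dendritic gene (Clu) and 1 of 8 stromal and endothelial genes (Pdgfrb, 2157 to 2585). These rested on single libraries or on the fit: Clu was called without acute control 1 (1.15, adjusted p = 0.0037) and Hba-a1 without acute knockout 1 (0.82, adjusted p = 0.0404). Pdgfrb was not called with all 20 libraries in 1 fit (adjusted p = 0.0697) or with the replicate block (0.0530). T-lineage genes went down, 15 of 19 being called lower and 0 higher (median -0.32), including Rag1 (34032 to 22344), Ptcra (10968 to 7205) and Tcf7 (54114 to 44377), the last turning to 0.073 with scaling on T-cell receptor beta transcripts and not called without acute knockouts 2 and 3 (adjusted p = 0.193) or with the replicate block (0.0751). Trac (2.32, SE 1.12, adjusted p = 0.140) and Cd4 (0.19, adjusted p = 0.198) were above 0 and not called. Their summed level, 250065 to 260086 in the controls, was 222566, 165943, 192218 and 208197 in knockouts 1 to 4, lowest in knockout 2. The part of these changes in the rise of the B cell genes was not tested.

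At the endpoint none of these lists held a gene called by limma. Neutrophil genes summed to 5236 to 26466 in the controls and 2721 to 30830 in the knockouts, and T-lineage genes to 231770 to 260401 and 232935 to 258822, so both overlapped. The most abundant gene of each list was Ngp (5737 and 3712 in controls and knockouts), Lyz2 (1662 and 1290), Itgax (84.0 and 86.2), Prf1 (60.0 and 57.3), Clu (87.4 and 63.0), Pdgfrb (2647 and 3672), Hba-a1 (10945 and 12977) and Tcf7 (47189 and 50469). For the difference between arms, 12 of 16 receptor signalling genes, 6 of 13 transcription factors, 8 of 16 mature surface genes, 3 of 5 marginal zone genes and 5 of 7 plasma cell genes were called lower, as were 14 of 14 neutrophil genes, while 13 of 18 T-lineage genes were called higher. Over all genes in that contrast 10.9% were called lower and 9.39% higher.

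Over the 20 libraries and 11217 genes with a mean of at least 50 in both tables, the genes whose group-centred levels were most like the mean of the 9 were Ighd (r = 0.852), the heavy chain of IgD on naive B cells, H2-Q6 (0.810) and H2-DMb2 (0.796), genes of the histocompatibility complex, Gimap3 (0.793), Gvin3 (0.789), Diaph2 (0.782), Cd52 (0.773) and Iglc2 (0.768), a lambda light chain constant region. These r values describe libraries that share depth and processing, and no p is given. All 8 were called higher in the acute arm, with log2 fold changes from 0.80 (Ighd) to 3.47 (Gvin3), and 0 of the 8 were called at the endpoint, where they ran from -0.72 (H2-Q6) to 0.24 (Diaph2). H2-Q6 and Iglc2 belong to families of near-identical genes among which reads can be split, so their levels are uncertain.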

How the data were processed

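The authors deposited 2 tables of normalized counts, 1 per arm, with 1 column per library. The deposited values are a signal of normalized counts and not raw reads: kallisto 0.46.0, GRCm39 and DESeq are named in the submitters' processing notes. The sources used here do not give how transcripts were joined into genes, nor the annotation. Low values came within 0.1 of a whole number of steps in 61.1 to 85.4% of cases, so whole reads were not recovered, no count test was run, and no counting interval is given. All value columns were matched to a sample by their labels, and no pair of libraries was identical.

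Fits used log2(normalized count + 1), which understates fold changes of low genes. A gene was tested where it reached 10 in at least 4 acute or 5 survival libraries. limma 3.58.1 in R 4.3.3 (lmFit, eBayes with a mean-variance trend) compared knockout with control within each table, without a block. Two-sided p-values were adjusted by Benjamini-Hochberg over all genes tested, with a threshold of 0.05, and "called" means past it. The difference between arms was a contrast over all 20 libraries. On simulated data of the acute design (16363 genes) the fit recovered 76% of genes changed 1.5-fold and 86% of those changed 2-fold; for the survival design (16136 genes) it recovered 66% and 92%. Of the genes called, 9 of 158 and 9 of 152 had not been changed. The recovered shares are not split by level or spread. Recovery at the levels and spread of the 9 B cell genes was not tested, so these shares cannot be read as recovery for them in either arm. Endpoint control means were 40.6 for Ms4a1, 34.7 for Fcer2a, 28.5 for Ebf1, 26.9 for Blk and 18.9 for Cr2. For the rest they ran from 54.3 (Pax5) to 120 (Cd79b). In the acute arm the SD was larger in knockouts than in controls for all but Cr2, as for Fcer2a (37.2 against 4.28).

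The 9 genes and the lists were chosen with earlier results of these data known, so their counts are descriptions and no list was tested. Named besides the 9 were, from each list and arm, the 2 called genes with the highest mean and the 2 with the largest change, or the most abundant gene where none was called, Acly, and the 8 genes most like the 9. The genes Vpreb1, Vpreb2, Igll1, Fdcsp, Madcam1, Cxcl13, Coch, Trac, Cd4, Pou2af1, Spib, Ighm and Ralgps2 fall outside this rule and were chosen after their values were seen. Promoter sequences are RefSeq's, on GRCm38.p6; as the tables use GRCm39, no other coordinates are given. The alternatives tried were the pseudocount, the filter, 2 other scalings, the variance model, 1 fit of all libraries, a replicate block and leaving out libraries. Figures were drawn with Python 3.11.15, pandas 2.3.3, numpy 2.4.6 and matplotlib 3.10.9.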

Additional observations from a re-analysis of the deposited data

Results flagged for a closer look

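For 8 of the 9 B cell genes the knockout effect differed between the arms by the test of the difference itself. The survival log2 fold change less the acute one was -2.03 for Cd79a, -1.75 for Cd79b, -2.03 for Blk, -1.61 for Cd22, -1.95 for Ms4a1, -1.73 for Fcer2a, -2.18 for Pax5 and -1.63 for Ebf1. Acly itself fell by more in the survival arm than in the acute arm, and the arms also differ in the stage at treatment and the time to collection, which cannot be told apart. The search for a library far from the rest of its group covered 36 combinations of gene and group and found 0, where about 1 in 20 would arise by chance.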

How the results depend on the processing

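All 9 genes were called in the acute arm with a pseudocount of 0.5 or 10, no filter or another variance model. They were also called with all libraries in 1 fit. Of all genes, 11.1 to 16.9% were called higher in these fits. With scaling to the T-cell receptor beta genes all 9 were called, but so were 42.4% of all genes. With quantile normalization 8 were called, against 14.2% of all genes. With a minimum of 50, 7 of 7 tested were called, against 19.2%. Blk and Cr2 passed that filter only through the knockouts, where they are high. When 1 library was left out 6 to 9 were called, against 12.7 to 17.7% of all genes. Without acute knockouts 2 and 3 the count was 3 in the acute arm and 2 for the difference between arms. The difference count was 3 with a minimum of 50, where only 3 genes were tested, and 8 in every leave-one-out fit. Of all genes, 11.2% were called lower in the former and 8.63 to 12% in the latter. At the endpoint 0 were called under every alternative. Same-numbered libraries correlated from -0.066 to 0.142 over 4 acute pairs (own number best for 2) and -0.020 to 0.128 over 5 survival pairs (best for 1). The labels used here do not say whether the numbers pair the samples, and so few correlations cannot settle it. With the replicate block 7 of the 9 were called in the acute arm, without Fcer2a (adjusted p = 0.0531) and Ebf1 (0.114), 0 at the endpoint and 8 for the difference. Of all genes, 12.9% were called higher in the acute arm and 8.96% lower for the difference with that block.

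Endpoint directions near 0 turned. When 1 library was left out, Cd22 ran from -0.11 to 0.24 (below 0 without control 3, knockout 2 or knockout 3) and Cr2 from -0.099 to 0.81 (below 0 without control 3, knockout 1 or knockout 5). Ikzf3 ran from -0.064 to 0.0081, Itgax from -0.063 to 0.29, Prf1 from -0.17 to 0.23, Ptpn6 from -0.0041 to 0.12 and Sdc1 from -0.084 to 0.050. With T-cell receptor beta scaling Tcf4 (0.089) and Tcf7 (0.073) turned in the acute arm, and Cd22 (-0.052), Dntt (-0.048), Itgax (-0.018), Ptpn6 (-0.031) and Tcf7 (-0.00047) at the endpoint. Endpoint Prf1 was at 0.013 with quantile normalization, and acute Hba-a1 at -0.34 without knockouts 2 and 3. The cause was not tested.

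T-cell receptor beta scaling moved the acute split of all genes from 2731 higher and 2409 lower to 6976 and 95 (median of all genes 0.34), and quantile normalization to 2318 and 4145 (median -0.14). Acly fell by 0.089 (adjusted p = 0.638) in the acute arm under the former. Endpoint standard errors of the 9 ran from 0.170 (Cd79b) to 0.769 (Cr2) on the log2 scale.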

Other observations

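Some B-lineage genes outside the 9 followed another course, and are given as values chosen after they were seen. Pou2af1, a coactivator of octamer factors that plasma cells and activated B cells express, rose in the acute arm from 268 ± 48.0 (SD, n = 6) to 673 ± 204 (SD, n = 4), a log2 fold change of 1.30 (adjusted p = 0.00037). At the endpoint it was at 311 ± 99.3 in controls and 642 ± 305 in knockouts (SD, n = 5 each), a log2 fold change of 0.96 (adjusted p = 0.300), and its difference between arms was -0.33 (adjusted p = 0.574). Spib, an ETS factor of B cells, followed the 9 genes more closely, with 1.52 in the acute arm (adjusted p = 0.0043), -0.65 at the endpoint (adjusted p = 0.362) and a difference of -2.17 (adjusted p = 0.00074).

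Ighm, the IgM heavy chain, was abundant in all groups and did not follow the 9 genes: 4269 ± 435 (SD, n = 6) and 3708 ± 301 (SD, n = 4) in the acute arm (adjusted p = 0.0663), and 3802 ± 203 and 4467 ± 353 (SD, n = 5 each) at the endpoint (adjusted p = 0.273). Its difference between arms was 0.43 (adjusted p = 0.0048), opposite in sign to that of Ighd (-0.79, adjusted p = 0.0545). With Ly6d and Ralgps2 it was 1 of 3 mature B-cell surface genes called higher in that contrast.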
